A study of Mus musculus with 21 samples.

Results

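Metallothioneins and the enzymes of the oxidative stress response were followed as 10 named genes across all 21 libraries of a single-cell RNA series, out of 24455 genes counted. The genes were Mt1 and Mt2 (metallothioneins), Hmox1, Nqo1, Gclm, Gclc, Srxn1, Txnrd1 and Slc7a11 (enzymes and a transporter of the antioxidant response) and Nfe2l2 (their regulator). They were taken by name, in a choice made with earlier results of these data known, and all 10 were found in the table. The series asked how mouse fibroblasts change when lentivirus delivers sets of blood cell transcription factors, with droplet-based single-cell RNA sequencing as the readout. Each transcript is read near its 3' end and counted by its unique molecular identifier (UMI). Levels below are in CPM, the UMIs of a gene summed over all cells of a library and scaled by the library's total.

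The reference fibroblasts were 2 libraries of wildtype mouse embryonic fibroblasts (MEFs), live by exclusion of DAPI and sorted for no reporter. The 16 transduced libraries came from 8 arms, each an arm of 1 factor set in 1 reporter line, collected once at day 3 and once at day 9. The sets were PI8 (Pu.1, encoded by Spi1, and Irf8), PIB (PI8 with Batf3), PI4 (Pu.1 and Irf4), PIP (PI4 with Prdm1), SII, which adds Ikzf2 to SI8, and SI8 itself (Spib and Irf8). Each of the 6 sets was delivered to MEFs of genotype Clec9aCre/Cre Rosa26stopflox-tdTomato/tdTomato, from which tdTomato+ cells were sorted. SI8 and SII were also tested in hCD2Cre/WT Rosa26stopflow-YFP/WT MEFs, from which YFP+ cells were sorted. The sorted cells are therefore those in which the Cre driver, under Clec9a or human CD2 control, had been active, and the wildtype MEFs carry neither allele. Splenic dendritic cells (DCs) of wildtype mice gave 1 library each of cDC1 (CD11c+ MHC-II+ CD8alpha+), cDC2 (CD11c+ MHC-II+ CD11b+) and pDC (CD11c+ SiglecH+ B220+ BST2+).

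Metallothioneins are small cysteine-rich proteins that bind zinc and copper, and the zinc-sensing factor MTF1 switches on their genes through metal response elements. The antioxidant enzymes are targets of NRF2, the product of Nfe2l2: KEAP1 marks NRF2 for destruction until electrophiles or oxidants release it, and NRF2 with a small MAF protein then binds antioxidant response elements. BACH1, a haem-binding repressor, occupies the same elements and is best known for holding down Hmox1. In macrophages and red pulp the haem and iron branch of this response handles haem from ageing red cells.

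The 25991 cells held 2501 to 99996 UMIs each, and libraries held 2291128 to 89394715 UMIs. Median UMIs per cell were 2765 and 2786 in SI8 of the hCD2 line and 82866 in PI8 at day 3. Any 2 libraries shared at most 4 cell barcodes. The fibroblast marker list summed to 27640 and 27920 CPM in MEF, with all 15 genes detected. It summed to 4155 to 10820 CPM in 15 transduced libraries. In those 15, Vim of that list stood at 1764 to 3371 CPM, above its 1293 and 1350 CPM in MEF. S100a4 stood at 64.94 to 2526 CPM, beside 278.9 and 280.8 in MEF. Col1a1 stood at 36.67 to 300.5 CPM, beside 5437 and 5409 in MEF. The library labelled PI8 day 9 stood apart, with 454.9 CPM of the fibroblast list, 407.1 of it Vim, and 11 of 15 genes detected. It held 393.1 CPM of Mpo and 66.51 CPM of Elane, granulocyte progenitor genes that lay at 0 to 0.215 CPM in the other 20 libraries. The list of 6 neutrophil and granulocyte genes they come from did not move as 1. Csf3r was also highest there, at 31.8 CPM. S100a8, S100a9 and Retnlg stood at 1.61, 1.94 and 0.161 CPM. S100a8 reached 2438 CPM in SI8 of the Clec9a line at day 9, and S100a9 and Retnlg reached 21.58 and 0.728 CPM in cDC2. The library is called by its label below, and results that rest on it are given with and without it. The cDC1, cDC2 and pDC lists were detected in their own libraries at 2887 CPM (8 of 8 genes), 924.3 CPM (7 of 7) and 18180 CPM (8 of 8). The sum of the cDC2 list was higher in pDC, at 1217 CPM, so that sum does not set cDC2 apart. Clec10a and Clec12a of that list were higher in pDC (314.9 and 503.2 CPM) than in cDC2 (38.49 and 56.43 CPM). Its other genes were higher in cDC2.

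No source says that libraries came from separate cultures or animals, and arms differ in factor set or line, so no transduced library has a replicate of its own. P-values reflect only how much these libraries vary, and that variation may be technical. Because cells were summed, fewer expressing cells and less RNA per cell cannot be told apart in a library's level.

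The promoters of the genes are described first, and every window was searched for each of the elements named below. RefSeq sequence of build GRCm38.p6, which is the build mm10 of the counts, gave a window for 8 of the 10 genes and 10 start sites. Each window covers the 250 bases before the start site and is written 5' to 3' on the strand of the gene. Capitals mark matches, on either strand, to the motif named with each sequence. The metal response element was searched as TGCACNC or TGCGCNC, found in 21.41% of 32851 mouse windows of the same length, and in 3 or more copies in 1.26%. The core of the antioxidant response element was searched as TGACNNNGC or TGAGNNNGC, found in 23.01% of windows and in 2 or more copies in 3.18%. The amino acid response element, the site of the amino acid starvation factor ATF4, was searched as TGATGNAA, found in 3.45% of windows and in 2 or more copies in 0.04%. The windows shown are those of both metallothioneins, the window with the most antioxidant cores (Srxn1) and the window with paired amino acid response elements (Slc7a11).
Mt1, metal response element, chr8:94178839-94179088, plus strand: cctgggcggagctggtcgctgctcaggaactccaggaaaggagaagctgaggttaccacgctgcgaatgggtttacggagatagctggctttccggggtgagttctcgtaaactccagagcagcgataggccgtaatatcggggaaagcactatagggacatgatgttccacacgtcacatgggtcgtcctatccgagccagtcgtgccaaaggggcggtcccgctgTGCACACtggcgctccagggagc
Mt2, metal response element, chr8:94172368-94172617, plus strand: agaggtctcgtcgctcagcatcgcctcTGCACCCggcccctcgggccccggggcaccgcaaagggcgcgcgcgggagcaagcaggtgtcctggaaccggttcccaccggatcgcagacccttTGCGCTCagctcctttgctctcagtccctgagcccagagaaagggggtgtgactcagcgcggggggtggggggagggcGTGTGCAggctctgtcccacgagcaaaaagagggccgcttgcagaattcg
Srxn1, antioxidant response element core, chr2:152105274-152105523, plus strand: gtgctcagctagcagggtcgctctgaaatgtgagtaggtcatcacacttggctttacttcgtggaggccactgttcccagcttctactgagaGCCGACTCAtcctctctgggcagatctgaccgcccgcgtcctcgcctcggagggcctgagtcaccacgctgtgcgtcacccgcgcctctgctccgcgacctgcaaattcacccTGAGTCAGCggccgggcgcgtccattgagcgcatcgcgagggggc
Slc7a11, amino acid response element, chr3:50443614-50443863, minus strand: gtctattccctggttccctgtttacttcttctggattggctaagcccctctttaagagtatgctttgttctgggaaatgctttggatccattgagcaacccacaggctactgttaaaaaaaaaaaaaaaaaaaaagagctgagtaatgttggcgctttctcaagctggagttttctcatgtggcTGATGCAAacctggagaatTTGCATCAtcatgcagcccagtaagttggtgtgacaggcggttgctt

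Mt2 and Mt1 are neighbours in the same orientation on chromosome 8, with 5315 bases between the end of Mt2 and the start of Mt1 as annotated. The Mt2 window held 3 metal response elements, at 223, 128 and 50 bases before its start site, and 1 antioxidant core at 79 bases. The Mt1 window held no antioxidant core and 1 metal response element, at 23 bases before its start site. It held 3 metal response elements when the 50 bases after that site were included. The start site used for Mt1 lies inside the annotated gene, which begins at position 94178883. Of the other windows, Gclm held 2 metal response elements and 1 antioxidant core, and the element at 138 bases before its start site overlapped the core at 134 bases. Srxn1 held 2 antioxidant cores and 1 metal response element. Slc7a11, whose annotated gene also extends upstream of the start site used, held 2 amino acid response elements at 66 and 47 bases and 1 antioxidant core at 97 bases. Nfe2l2 and 1 of 3 Txnrd1 windows held 1 antioxidant core each, and the Nqo1 window held none of the motifs. A match of letters describes the window and says nothing of binding in these cells.

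**Figure D1:**
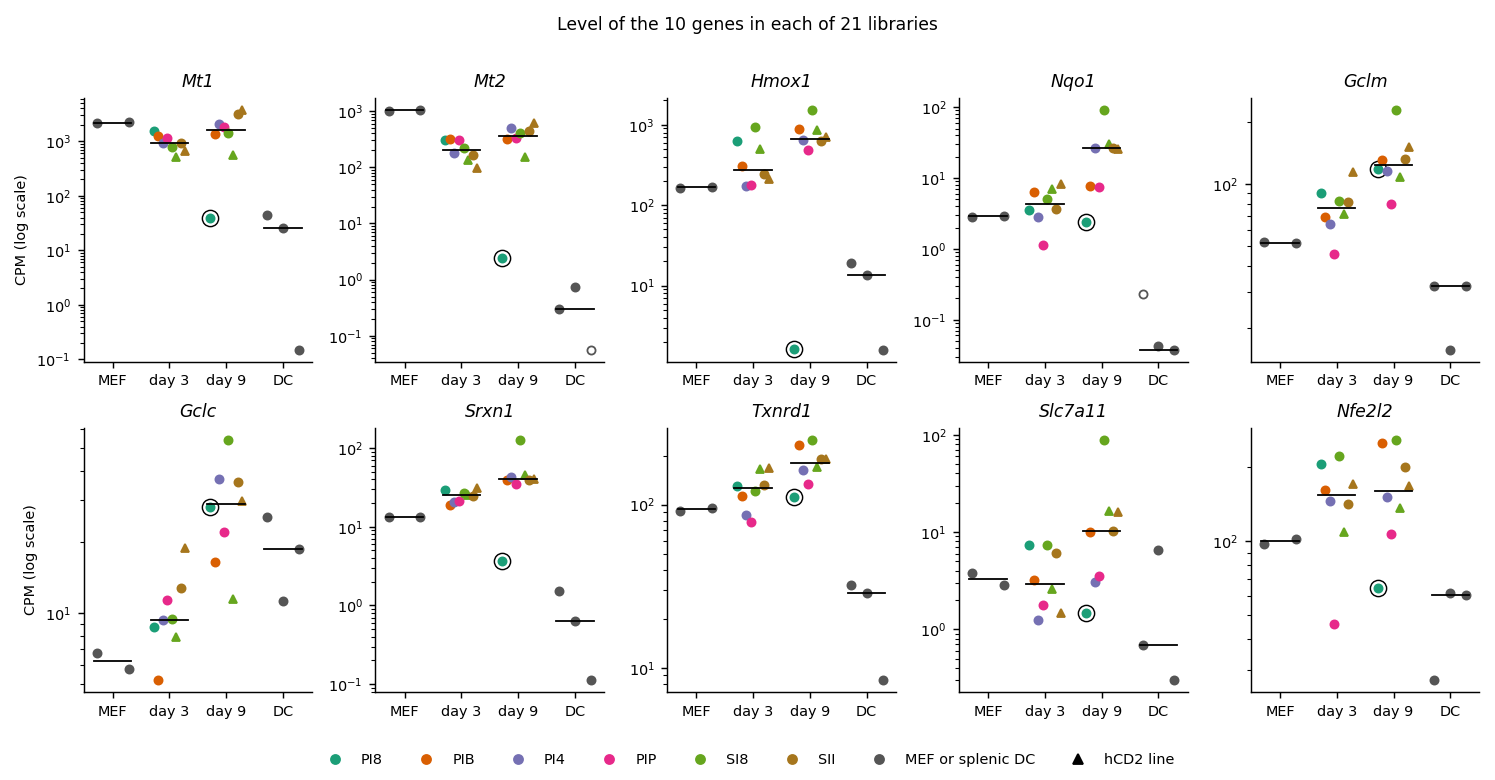
Level of each gene in every library, on a logarithmic CPM axis, by group (MEF, day 3, day 9, splenic DC). Points are libraries, coloured by factor set, triangles are the hCD2 line, bars are group medians, the ringed point is the library labelled PI8 day 9 and hollow grey points stand at the limit that a count of 0 allows. Mt2 at 1013 and 1050 CPM in MEF lies above all transduced libraries, and all 8 Hmox1 and Srxn1 points of day 3 lie above MEF.

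The metallothionein gene Mt2 lay below untransduced fibroblasts in every transduced library, and Mt1 did so at day 3. Mt2 stood at 1013 and 1050 CPM in MEF. At day 3 it ran from 98.39 CPM (SII in the hCD2 line) through a median of 199.6 to 313.3 CPM (PIB). At day 9 it ran from 2.42 CPM in the library labelled PI8 day 9 through a median of 365.6 to 607.7 CPM (SII in the hCD2 line). No transduced library reached either MEF library, so the groups did not overlap. The 2 MEF libraries lay close together, and the share of all genes that lay apart in this way is not given, here or below. Over all libraries the log2 fold change at day 3 was -2.09 ± 0.79 (SE), and the edgeR test did not call it (adjusted p = 0.0775). Without the library labelled PI8 day 9, Mt2 was lower at day 3 by -2.10 ± 0.38 (adjusted p = 0.000859). It was also lower at day 9, by -1.39 ± 0.40 (adjusted p = 0.0231).

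Mt1 stood at 2119 and 2237 CPM in MEF, and at day 3 it ran from 508.9 CPM (SI8 in the hCD2 line) through a median of 919.3 to 1541 CPM (PI8). All 8 day 3 libraries lay below both MEF libraries. At day 9 it ran from 39.71 CPM in the library labelled PI8 day 9 through a median of 1613 to 3758 CPM (SII in the hCD2 line). Both SII libraries of day 9, at 3119 and 3758 CPM, lay above MEF, so at day 9 the groups overlapped. The log2 fold change was -1.02 ± 0.76 at day 3 (adjusted p = 0.361) and -0.30 ± 0.79 at day 9 (adjusted p = 0.839), and Mt1 was called at neither day, with or without the library labelled PI8 day 9 (adjusted p = 0.0786 at day 3 without it).

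The balance of the pair also differed between libraries. Mt1 UMIs per Mt2 UMI were 2.09 and 2.13 in MEF. They ran from 3.51 (SI8 in the Clec9a line at day 9) to 6.96 (SII in the Clec9a line at day 9) in 15 transduced libraries and stood at 16.4 in the library labelled PI8 day 9. Every transduced library lay above both MEF libraries in this ratio. The 4 SII libraries held 5.63 to 6.96, above the 3.51 to 3.78 of the 4 SI8 libraries. No test was run on the ratio.

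Among the genes of metal handling, the metal sensor gene Mtf1 was called higher at day 3 (log2 fold change 0.83 ± 0.17, adjusted p = 0.00383) and at day 9 (0.56 ± 0.17, adjusted p = 0.0423). The call of Mtf1 held in 16 of 18 fits that left out 1 library at day 3, failing when the first or the second MEF library was left out, and in 5 of 18 at day 9. Slc39a14, which encodes the zinc and iron importer ZIP14, stood at 103.4 and 101.7 CPM in MEF and at 4.30 to 15.92 CPM in the 16 transduced libraries. Its fall was -3.61 ± 0.30 at day 3 (adjusted p = 2.25e-06) and -3.21 ± 0.30 at day 9 (adjusted p = 1.17e-05). Slc30a1, the zinc exporter gene known as an MTF1 target, stood at 8.05 and 5.86 CPM in MEF and at 2.18 to 9.87 CPM in the transduced libraries, and was not called. Of the 4 zinc transporter genes listed, 1 was lower at each day and none was higher. Counting both directions, 17.1% of all genes were called at day 3 and 10.6% at day 9. Mtf1 and Slc30a1 are named here after their values were seen.

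Hmox1 encodes the inducible enzyme that splits haem into biliverdin, iron and carbon monoxide, and its level differed several-fold between the factor sets. It stood at 163.7 and 169.6 CPM in MEF. At day 3 it was 940.2 CPM in SI8 of the Clec9a line, 635.5 in PI8, 499.3 in SI8 of the hCD2 line and 306.1 in PIB. The remaining day 3 libraries, PI4 at 174.7, PIP at 176.2 and SII at 210.2 and 241.7 CPM, lay just above MEF. At day 9 Hmox1 ran from 480.4 CPM (PIP) to 1527 CPM (SI8, Clec9a line) in 7 libraries, all above MEF. The library labelled PI8 day 9 held 10 Hmox1 UMIs, or 1.61 CPM (95% interval 0.774 to 2.97). With it, Hmox1 was not called against MEF at day 9 (log2 fold change 2.17 ± 1.24, adjusted p = 0.263). Without it, Hmox1 was higher by 2.33 ± 0.71 (adjusted p = 0.0288).

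In the glutathione branch Gclm and Gclc were called with all libraries in the fit. Gclm and Gclc encode the modifier and the catalytic subunit of glutamate-cysteine ligase, which makes the first and limiting step of glutathione synthesis. Gclm stood at 51.47 and 52.43 CPM in MEF and at day 9 ran from 80.34 CPM (PIP) through a median of 124.3 to 229.1 CPM (SI8, Clec9a line). Gclc stood at 5.75 and 6.76 CPM in MEF and at day 9 ran from 11.39 CPM (SI8, hCD2 line) through a median of 28.84 to 53.79 CPM (SI8, Clec9a line). In both genes all 8 day 9 libraries, the one labelled PI8 day 9 included, lay above both MEF libraries. The share of all genes that did so is not given. Gclm was higher at day 9 by 1.38 ± 0.33 (adjusted p = 0.0126) and Gclc by 2.23 ± 0.51 (adjusted p = 0.00993). With only 1 of the 2 MEF libraries in the fit neither passed: the adjusted p was 0.187 and 0.183 for Gclm and 0.148 and 0.182 for Gclc, without the first and the second MEF library.

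Slc7a11 encodes the cystine importer that feeds glutathione synthesis, and its level was low outside a single arm. It stood at 3.76 and 2.83 CPM in MEF and at 1.25 to 7.42 CPM at day 3, with a median of 2.93. At day 9 the lowest library held 1.45 CPM, the median was 10.16, and SI8 in the Clec9a line held 88.12 CPM (95% interval 83.76 to 92.64). The next highest library, SI8 in the hCD2 line, held 16.55 CPM. Slc7a11 was not called against MEF at either day (log2 fold change 2.57 ± 1.32 at day 9, adjusted p = 0.214).

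The NAD(P)H quinone reductase gene Nqo1, a reference target of NRF2, lay on both sides of MEF at day 3 and was mostly higher at day 9. It stood at 2.80 and 2.96 CPM in MEF. At day 3 it ran from 1.14 CPM (PIP), with PIB at 6.31 and SI8 of the hCD2 line at 6.98, to 8.37 CPM (SII, hCD2 line). At day 9 the library labelled PI8 day 9 held 2.42 CPM, PIP and PIB 7.53 and 7.64 CPM, and 4 libraries 26.06 to 30.31 CPM. SI8 in the Clec9a line held 91.57 CPM (95% interval 87.13 to 96.19). The log2 fold change at day 9 was 3.31 ± 1.12 (adjusted p = 0.065), and 3.46 ± 0.95 without the library labelled PI8 day 9 (adjusted p = 0.0173).

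Srxn1 and Txnrd1 serve thiol repair: sulfiredoxin reduces over-oxidised peroxiredoxins, and cytosolic thioredoxin reductase recharges thioredoxin. Srxn1 stood at 13.12 and 13.46 CPM in MEF and at 18.91 to 31.20 CPM at day 3, so the groups did not overlap. At day 9 it ran from 3.71 CPM in the library labelled PI8 day 9 through a median of 40.00 to 126.1 CPM (SI8, Clec9a line). Txnrd1 stood at 92.02 and 96.01 CPM in MEF, at 78.71 to 167.2 CPM at day 3 and at 110.7 to 248.5 CPM at day 9, where no library overlapped MEF. In both genes the 2 MEF libraries lay close together, and the share of all genes that lay apart in this way is not given. Over all libraries neither was called at day 9 (Srxn1 1.88 ± 0.74, adjusted p = 0.112, and Txnrd1 0.97 ± 0.33, adjusted p = 0.0665). Without the library labelled PI8 day 9 both were higher, Srxn1 by 2.03 ± 0.46 (adjusted p = 0.00564) and Txnrd1 by 1.04 ± 0.27 (adjusted p = 0.0122).

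Nfe2l2, the gene of NRF2 itself, was called at neither day. It stood at 97.88 and 102.3 CPM in MEF, at 45.94 (PIP) to 222.3 CPM (SI8, Clec9a line) at day 3 and at 64.57 to 258.2 CPM at day 9, with medians of 154.1 and 159.9. PIP at day 3 lay below both MEF libraries and the other 7 day 3 libraries above them. Its log2 fold change was 0.73 ± 0.49 at day 3 (adjusted p = 0.312) and 0.77 ± 0.50 at day 9 (adjusted p = 0.317). NRF2 is controlled mainly through its protein, which these counts do not measure.

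By count, none of the 10 genes was called at day 3 in a comparison that called 17.1% of all genes tested, and 2 of 10 were called higher at day 9, where 10.6% of genes were called, 5.01% of those tested being higher. Without the library labelled PI8 day 9, 1 of 10 was lower at day 3, beside 27.1% of genes called and 12.9% called lower. At day 9 without it, 6 of 10 were higher and 1 lower, beside 20.2% of genes called, 10.4% of them higher and 9.78% lower as shares of all genes tested. Both days were set against the same MEF libraries, so the comparisons are not independent. The median log2 fold change over the 10 genes at day 9 was 1.63, beside 0.19 over all genes. Because the genes were chosen with earlier results of these data known, these counts and medians only describe the 10 genes. The 10 genes also included 8 with positive values at each day, the exceptions being Mt1 and Mt2.

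Day 3 and day 9 against MEF called 17.1% and 10.6% of all genes, counting both directions. In the other genes of these pathways, 57 listed and 56 tested, 15 were higher and 2 lower at day 3. At day 9, 13 were higher and 2 lower. The largest changes were in Taldo1, a transaldolase of the pentose phosphate pathway that supplies NADPH (4.22 ± 0.59 at day 3, adjusted p = 0.000233, and 3.23 ± 0.55 at day 9, adjusted p = 0.00163), and in Slc39a14, given above. The third at day 3 was Gsta4, a glutathione transferase for lipid aldehydes (-2.27 ± 0.60, adjusted p = 0.0164), and at day 9 Maff, a small MAF partner gene (2.82 ± 0.72, adjusted p = 0.0187). Without the first or the second MEF library, 2 or 1 of the 56 were higher and 1 lower at day 3, and 0 were higher and 1 lower at day 9. Slc39a14 was called in all of these fits and Taldo1 in those of day 3. In the thioredoxin and peroxiredoxin list 5 of 10 were higher at day 3 and 3 of 10 at day 9. In the iron and haem list 3 of 8 were higher at day 3 and 1 of 8 at day 9. With these counts the haematopoietic marker list moved too, from 217.8 and 221.6 CPM in MEF to 606 to 2688 CPM in transduced libraries, with all 12 genes at positive fold changes and 5 called at each day. Its part in the values of the 10 genes was not tested by these sums, and a comparison of cells within libraries follows below.

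**Figure D2:**
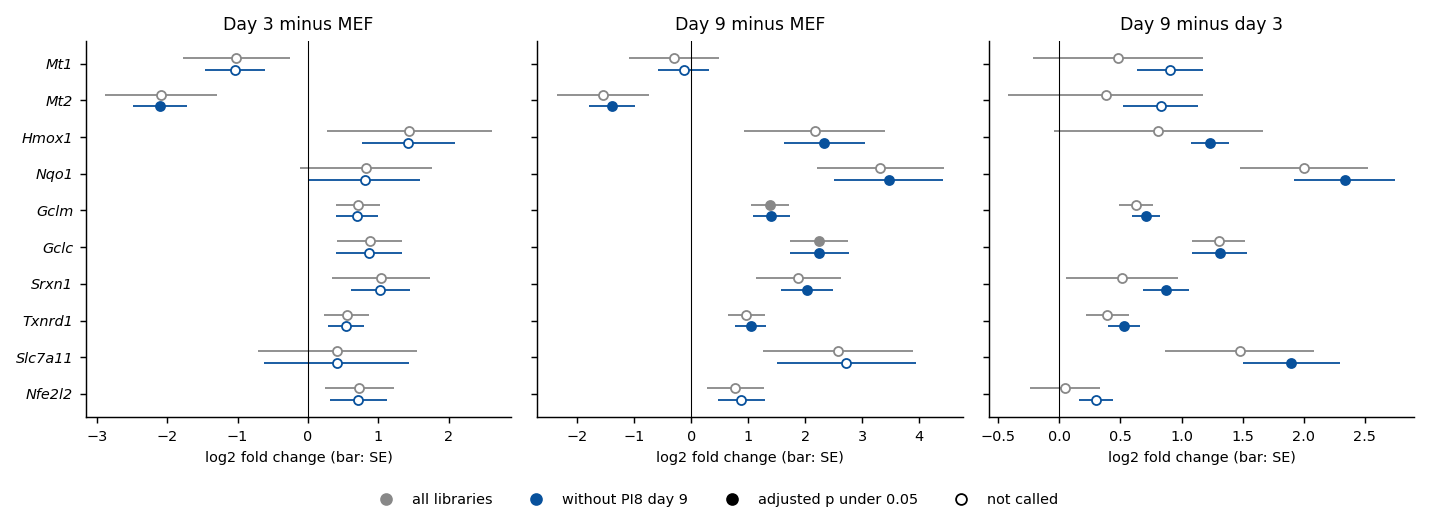
Log2 fold change (x axis, bars are SE) of the 10 genes for day 3 against MEF, day 9 against MEF and day 9 against day 3, with all libraries (grey) and without the library labelled PI8 day 9 (blue). Filled points passed an adjusted p of 0.05. With all libraries only Gclm and Gclc at day 9 against MEF are filled, while without that library 7 genes are filled at day 9 against MEF and 7 at day 9 against day 3.

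Between day 3 and day 9 of the same arm, the antioxidant genes were higher at the later day in nearly every arm. Gclc and Gclm were higher at day 9 in 8 of 8 arms. Mt1, Mt2, Hmox1, Nqo1, Srxn1, Txnrd1 and Slc7a11 were higher in 7 of 8, the exception in each being PI8. Nfe2l2 was higher in 6 of 8, the exceptions being PI8 and SII in the hCD2 line. The share of all genes that were higher in as many arms is not given. Values within arms show how far apart the steps were: the day 9 to day 3 ratio of Hmox1 lay between 1.62 and 3.68 in 7 arms, that of Gclc between 1.45 and 5.73 in 8 arms, and that of Nqo1 between 1.21 (PIB) and 18.2 (SI8, Clec9a line) in 7 arms.

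The test with the arm as a block called 0 of the 10 genes over all 16 libraries, with 0.0808% of all genes called. In that edgeR fit 13 of 16090 genes were called and 2604 had an unadjusted p under 0.05, and DESeq2 called 1203 genes, with Nqo1, Gclm and Gclc among them. Without the library labelled PI8 day 9, or without its day 3 partner in its place, the same test called 7 of the 10 genes. In either fit the block for the arm absorbs the PI8 library that remains. Both fits therefore take the day difference from the same other arms and are not separate evidence. All 7 were higher in the first of these fits, beside 7.55% of all genes called and 3.42% called higher. These were Hmox1 (1.23 ± 0.16, adjusted p = 0.00647), Nqo1 (2.33 ± 0.41, adjusted p = 0.0164), Gclm (0.71 ± 0.11, adjusted p = 0.0122), Gclc (1.31 ± 0.23, adjusted p = 0.0149), Srxn1 (0.87 ± 0.19, adjusted p = 0.0292), Txnrd1 (0.53 ± 0.13, adjusted p = 0.0402) and Slc7a11 (1.90 ± 0.40, adjusted p = 0.026). Mt1 (0.91 ± 0.27, adjusted p = 0.072), Mt2 (0.83 ± 0.31, adjusted p = 0.126) and Nfe2l2 (0.30 ± 0.14, adjusted p = 0.21) did not pass. The median over the 10 genes, which only describes them, was 0.89, beside -0.004 over all genes.

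Libraries also differed in depth and RNA quality. The share of UMIs from Gm42418, AY036118 and Lars2, transcripts that rise in damaged or shallow droplets, was 3.66% in SI8 of the Clec9a line at day 9 and 0.286% at day 3. It was 8.33% and 10.81% in SI8 of the hCD2 line at days 3 and 9, and 0.146% to 3.47% elsewhere among transduced libraries, beside 0.084% and 0.076% in MEF. The share was higher at day 9 than at day 3 in 7 of 8 arms, the exception being SII in the hCD2 line (0.355% and 0.146%), so it moved with the later day as the 10 genes did, and its part in their change was not tested. When only cells of at least 10000 UMIs were used and the library labelled PI8 day 9 was left out, 6 of the 10 genes were called higher, Txnrd1 being lost (adjusted p = 0.0717), beside 4.2% of all genes called and 2.09% called higher. When both SI8 libraries of the hCD2 line were left out with it, 5 were called, beside 5.22% of all genes. In SI8 of the Clec9a line at day 9, the 468 cells of at least 10000 UMIs held 96.19 CPM of Nqo1 and 92.76 CPM of Slc7a11, and the 412 shallower cells 67.33 and 63.73 CPM.

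The other genes of the pathways split in direction between the days. Without the library labelled PI8 day 9, 7.55% of all genes were called and 3.42% were called higher. In that fit 7 of 56 pathway genes were higher and 4 lower, with a median of 0.09, and over all libraries 0 were called. The largest were Sod3, the extracellular superoxide dismutase (2.19 ± 0.47, adjusted p = 0.0283), Gsta4 (1.69 ± 0.39, adjusted p = 0.0352) and Gstm1, another glutathione transferase (1.14 ± 0.18, adjusted p = 0.0122). Of the 10 thioredoxin and peroxiredoxin genes none was higher and 1 was lower. Maff was higher and Mtf1 lower among the 7 regulators, and Keap1 (-0.06 ± 0.12, adjusted p = 0.802) and Bach1 (0.02 ± 0.13, adjusted p = 0.95) did not pass; these regulators are named after their values were seen. In the same fit the fibroblast marker list had 4 of 15 genes higher and none lower, and the haematopoietic list 1 of 12 higher and 2 lower; their part in the change of the 10 genes was not tested.

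**Figure D3:**
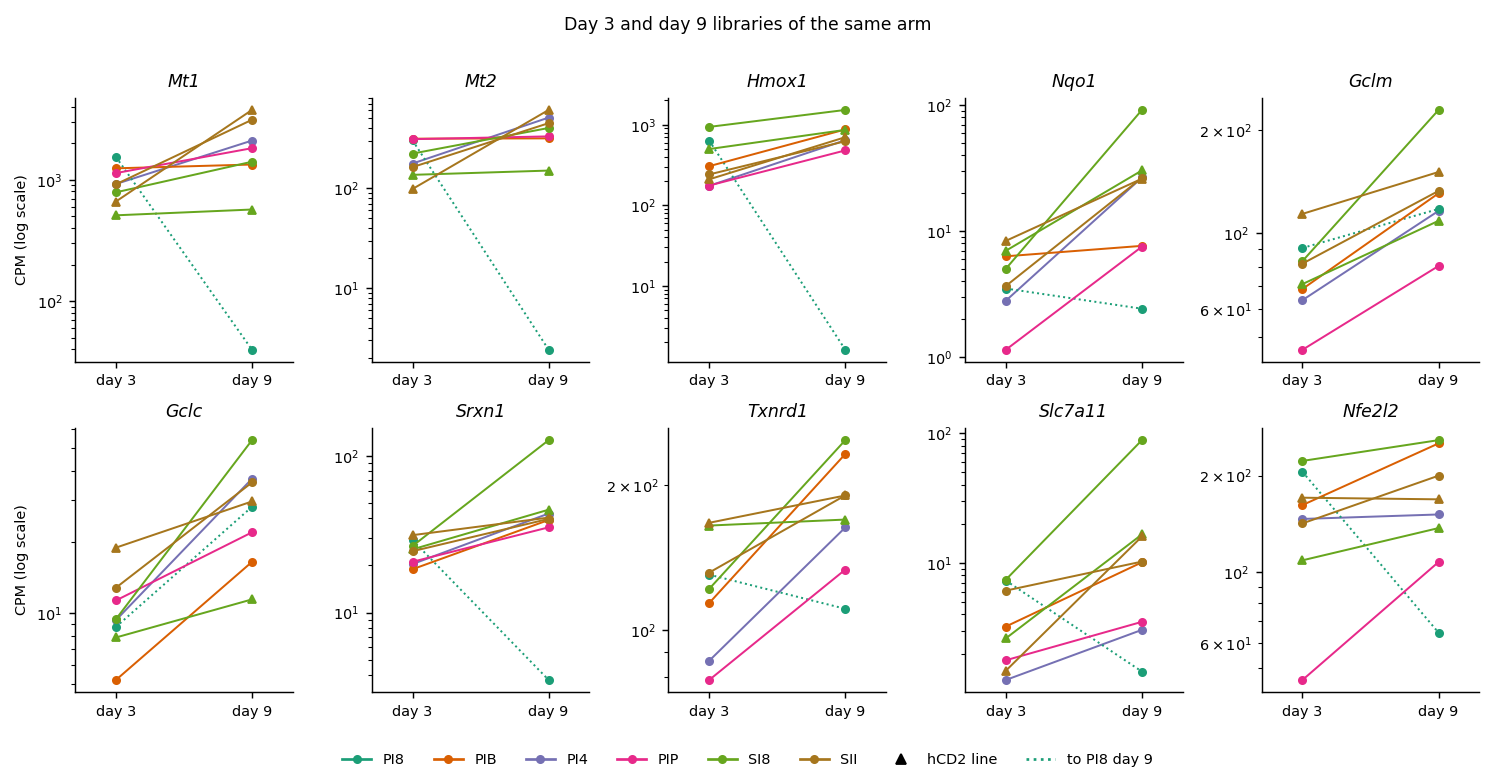
Level at day 3 and day 9 (logarithmic CPM axis) for each of the 10 genes, with a line joining the libraries of an arm, coloured by factor set, triangles for the hCD2 line and a dotted line for the arm that ends in the library labelled PI8 day 9. Solid lines of Hmox1, Nqo1, Gclm, Gclc, Srxn1, Txnrd1 and Slc7a11 all rise, and the dotted line falls in all but Gclm and Gclc.

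Hmox1 was lower where Ikzf2 had been added. SII differs from SI8 by Ikzf2, which encodes HELIOS, and 4 pairs of libraries share line and day. At day 3 Hmox1 stood at 940.2 CPM in SI8 and 241.7 in SII of the Clec9a line, and at 499.3 and 210.2 CPM in the hCD2 line. At day 9 it stood at 1527 and 624.4 CPM in the Clec9a line and at 863.5 and 700.6 CPM in the hCD2 line. SII was lower in 4 of 4 pairs, with ratios of 0.257, 0.421, 0.409 and 0.811. The log2 fold change was -1.50 ± 0.25 (adjusted p = 0.00362), in a comparison that called 37.6% of all genes, 18.8% of them lower as a share of those tested. In the Clec9a line alone it was -1.88 (adjusted p = 0.0197), and over cells of at least 10000 UMIs -1.26 (adjusted p = 0.0237). SI8 of the hCD2 line held only 11 and 31 such deep cells at days 3 and 9. Deep cells of that line held 251.0 CPM in SI8 and 210.3 in SII at day 3. At day 9 the order turned, with 665.4 CPM in SI8 and 701.5 in SII. Deep cells of the Clec9a line held 940.6 and 241.8 CPM at day 3, and 1563.0 and 626.6 CPM at day 9.

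No other of the 10 genes passed in this comparison. Slc7a11 was lower in SII in 4 of 4 pairs (-1.29 ± 0.50, adjusted p = 0.0749), with ratios of 0.116 in the Clec9a line at day 9 and 0.964 in the hCD2 line at day 9. Nqo1 was lower in 3 of 4 pairs (-0.93 ± 0.45, adjusted p = 0.137) and Srxn1 in 3 of 4 (-0.75 ± 0.34, adjusted p = 0.11). Single libraries moved these calls: without SII of the hCD2 line at day 3, Nqo1 (adjusted p = 0.0238) and Srxn1 (0.0372) passed, and without SII of that line at day 9, Slc7a11 did (0.0328). Gclc passed as higher in SII without SI8 of the Clec9a line at day 9 (adjusted p = 0.0488). Mt1 was higher in SII in 4 of 4 pairs, with ratios of 1.16 to 6.62, and did not pass (0.82 ± 0.37, adjusted p = 0.117). Mt2 was higher in 2 of 4 pairs (0.03 ± 0.38, adjusted p = 0.963). The interaction of the set with the line called 0 of the 10 genes and 0 of 15423 genes (0%) with edgeR, 809 had an unadjusted p under 0.05, and DESeq2 called 47.

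In the pathway lists 7 of 56 genes were higher and 17 lower in SII, beside 37.6% of all genes called and 18.8% called lower. The largest were Sod3 (-5.06 ± 1.02, adjusted p = 0.00745), Gpx8, a peroxidase of the endoplasmic reticulum (-2.65 ± 0.55, adjusted p = 0.00839), and Slc39a8, a zinc and manganese importer gene (-1.73 ± 0.27, adjusted p = 0.00279). Sod3 stood at 0.152 to 5.66 CPM in the 4 SII libraries and at 4.80 to 144.4 CPM in the 4 SI8 libraries. Of the thioredoxin and peroxiredoxin genes 6 of 10 were lower and none higher. Bach1, the gene of the Hmox1 repressor, was higher in SII (1.09 ± 0.18, adjusted p = 0.00325), at 30.35 to 37.98 CPM beside 8.73 to 15.43 CPM in SI8; it is named after its values were seen. The fibroblast list had 6 of 15 genes lower and 1 higher in SII, the haematopoietic list 6 of 12 higher and 3 lower, and the RNA quality share was 0.146% to 0.593% in SII beside 0.286% to 10.81% in SI8. Their part in these differences was not tested.

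**Figure D4:**
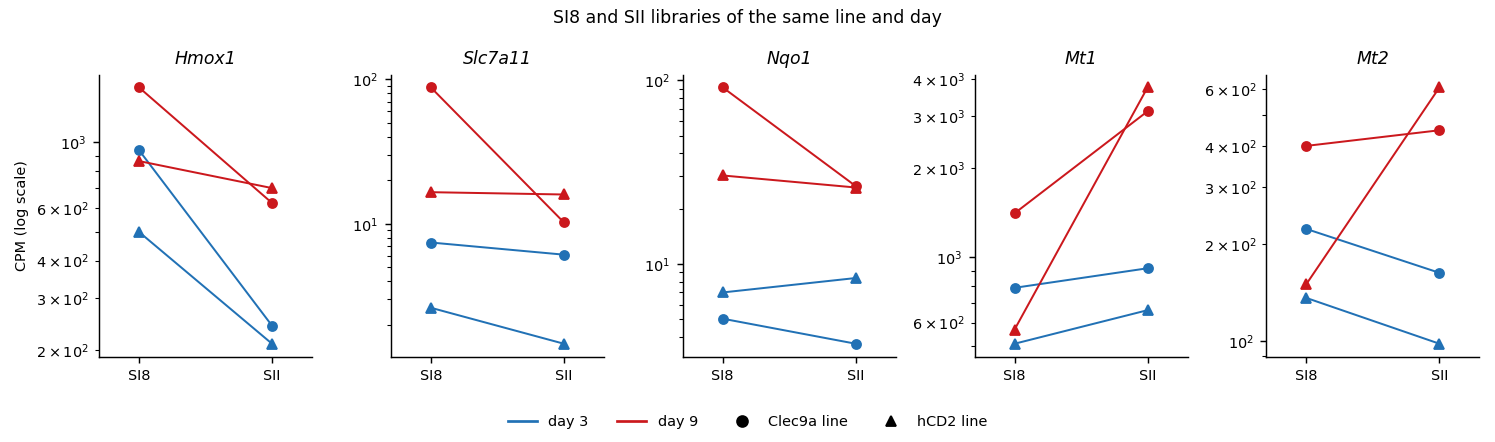
Levels (logarithmic CPM axis) of Hmox1, Slc7a11, Nqo1, Mt1 and Mt2 in SI8 and SII, with a line joining the libraries of the same line and day (blue day 3, red day 9, circles Clec9a line, triangles hCD2 line). All 4 Hmox1 lines fall and all 4 Mt1 lines rise from SI8 to SII, while the Mt2 lines fall at day 3 and rise at day 9.

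Other differences between the sets did not reach the threshold for any of the 10 genes. PIB was set against PI8, PIP against PI4, the Irf4 sets (PI4 and PIP) against the Irf8 sets (PI8 and PIB), and the hCD2 line against the Clec9a line. They called 0%, 0.137%, 0.00697% and 0.0195% of all genes with edgeR. At an unadjusted p under 0.05 they had 2987, 1696, 1061 and 775 genes, and DESeq2 called 1281, 628, 335 and 66 genes. In PIB against PI8 and PIP against PI4 each side has 1 library per day, and PI8 includes the library that stands apart. When PI8 day 3 was left out, so that this library alone stood for PI8, 8 of the 10 genes were called, beside 7364 of 17368 genes (42.4%) in that fit. Slc7a11 was lower in the hCD2 line in 3 of 4 pairs (-1.37 ± 0.49, adjusted p = 0.918), and passed without SII of the Clec9a line at day 9 (-2.03, adjusted p = 0.0431). Nqo1 was lower in PIP than PI4 at both days (1.14 against 2.80 CPM and 7.53 against 26.64 CPM, log2 fold change -1.52 ± 0.94, adjusted p = 0.648). In the pathway lists PIP had less Mafk, a small MAF gene (-1.91 ± 0.23, adjusted p = 0.0158), the 1 gene of 56 called there, and Mafk was called in 6 of the 16 fits that left out 1 library.

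Splenic DCs held little metallothionein transcript. Mt2 had 4 UMIs in cDC1 (0.303 CPM, 95% interval 0.0825 to 0.775), 17 in cDC2 (0.728 CPM) and 0 in pDC (upper 95% limit 0.0694 CPM). Mt1 stood at 44.90 CPM in cDC1, 25.43 CPM in cDC2 and 0.151 CPM (8 UMIs) in pDC. Against MEF, with the 3 types taken as 1 group, Mt2 was lower by -11.66 ± 1.67 (adjusted p = 3.63e-05) and Mt1 by -6.52 ± 1.45 (adjusted p = 0.00177). The library labelled PI8 day 9, at 39.71 CPM of Mt1, lay within the range of the DC libraries, and at 2.42 CPM of Mt2 it lay between them and the other transduced libraries.

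Nqo1 had 0, 1 and 2 UMIs in cDC1, cDC2 and pDC, with upper 95% limits of 0.279, 0.239 and 0.136 CPM. Srxn1 stood at 1.51, 0.642 and 0.113 CPM in the same order, and Hmox1 at 19.00, 13.66 and 1.60 CPM. Gclc ran the other way, at 25.44, 11.22 and 18.63 CPM, above both MEF libraries in all 3. The comparison with MEF called 39.5% of all genes and 8 of the 10: Mt1, Mt2, Hmox1, Nqo1, Gclm, Srxn1 and Txnrd1 lower (23.1% of genes) and Gclc higher (1.52 ± 0.54, adjusted p = 0.032; 16.4% of genes). When the 5 libraries alone were fitted, only Mt2, Nqo1 and Srxn1 were called, while 39.7% of all genes were called in that fit. In the fit of all libraries Hmox1, Gclm and Gclc passed in none of the fits that left out 1 MEF library (adjusted p = 0.0674 to 0.177), and each also lost its call without 1 or more of the splenic libraries. Against day 9, which shares the DC libraries with that comparison, 8 of the 10 were lower beside 48.1% of genes called and 28.5% called lower, and Gclc (-0.71 ± 0.40, adjusted p = 0.141) and Slc7a11 (-3.00 ± 1.23, adjusted p = 0.0502) did not pass. Slc7a11 passed when cDC2 (adjusted p = 0.0136) or the day 9 library of PI8, PI4 or PIP (0.0261 to 0.0428) was left out.

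In the pathway lists 10 of 56 genes were higher and 16 lower in DCs than in MEF, beside 16.4% and 23.1% of all genes. Gpx8 and Sod3 had 0 UMIs in all 3 splenic libraries and stood at 177.7 and 183.9 CPM and at 74.31 and 77.96 CPM in MEF. Gsta4 also had 0 UMIs in these libraries, and stood at 22.15 and 23.22 CPM in MEF. A count of 0 allows up to 0.227, 0.128 and 0.0565 CPM in cDC1, cDC2 and pDC. These 3 had the largest fitted differences, and all 3 were called lower (adjusted p = 8.11e-05, 0.00463 and 4.52e-06 for Gpx8, Sod3 and Gsta4). The fibroblast list stood at 117.4 to 2131 CPM in the splenic libraries. Vim made up 457.0, 333.0 and 95.69 CPM of it in cDC1, cDC2 and pDC, and S100a4 25.59, 1783 and 14.88 CPM. Col1a1 stood at 0 CPM in all 3.

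Hmox1 in the cDC2 library sat in few cells. Of its 319 Hmox1 UMIs, 174 (54.5%) lay in 42 of 1881 cells (2.23%) that held UMIs of at least 3 of 8 red pulp macrophage marker genes. Those cells held 302.1 CPM of Hmox1, and the 876 cells with no UMI of the markers held 2.70 CPM, at median depths of 11911.5 and 11712.5 UMIs. The 876 cells held 28 of the Hmox1 UMIs, and the 963 cells between these classes held the rest. In cDC1 3 such cells held 6 of 251 Hmox1 UMIs, and in pDC 2 such cells held 0 of 85. Hmox1 was uneven in cDC1 too, where 4 cells had 10 or more of its UMIs, with up to 37 in 1 cell. The cDC1 cells with no UMI of the markers, 677 of 814, held 139 of the 251 UMIs. The marker list summed to 155.4 CPM in cDC2, 24.00 CPM in cDC1 and 1.51 CPM in pDC.

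Transcripts of Mt1 and Hmox1 were spread unevenly between the cells of a library. After each cell was thinned to 2500 UMIs, the 10% of cells with the most Mt1 held 30.72% and 30.08% of Mt1 UMIs in MEF, at a mean of 5.37 and 5.74 UMIs per cell. In SII at day 3 they held 63.54% and 66.74%, at means of 2.19 and 1.70. SI8 in the Clec9a line and PI4 at day 3, with like means of 1.97 and 2.46, held 43.75% and 32.99%. At day 9 the SII libraries held 41.55% and 44.09%, at means of 7.85 and 9.07. Hmox1 in SII at day 3 was also concentrated, at 61.46% and 67.78% in the top 10% of cells, beside 51.39% and 49.80% in MEF at similar means. All cells had more than 2500 UMIs, so thinning left out none. No test was run on these shares, which also move with the level itself.

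Cells high in Mt1 tended to be high in Mt2. Spearman's rho of the thinned counts across the cells of a library was 0.499 and 0.478 in the MEF libraries, and 0.686 and 0.669 in SII at day 9. It was 0.067 and 0.080 in SI8 of the hCD2 line and 0.091 in the library labelled PI8 day 9. The counts share a cell's sampling, and the lowest values belong to libraries with the shallowest cells or the fewest transcripts. Mt1 with Hmox1 gave -0.013 to 0.134 over the 18 MEF and transduced libraries.

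**Figure D5:**
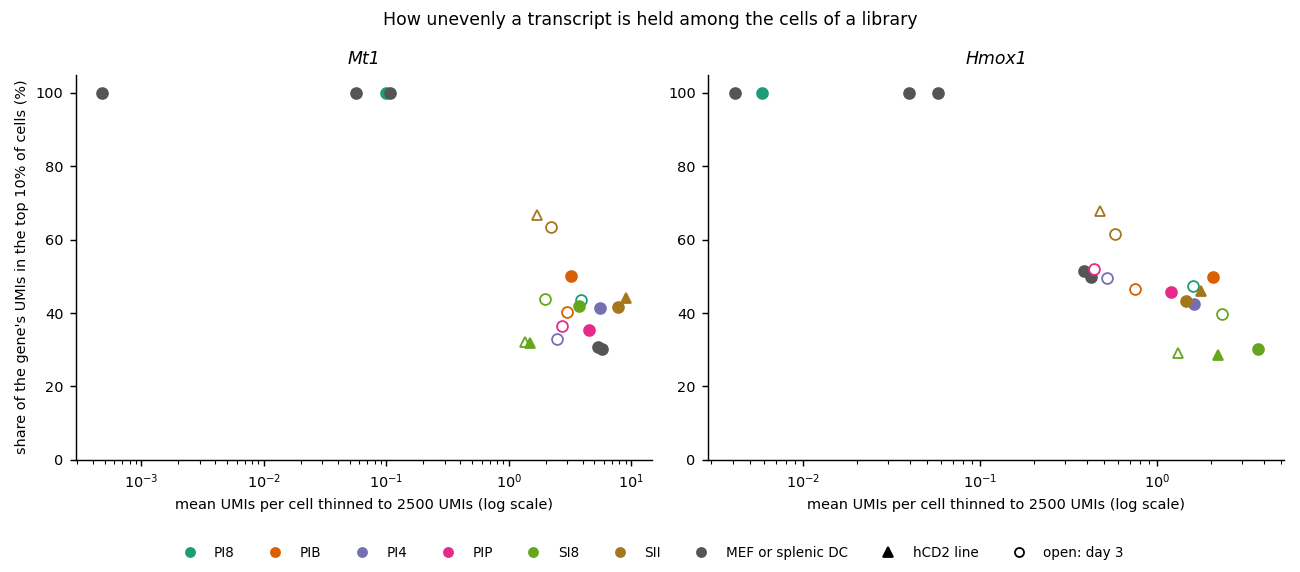
Share of the UMIs of Mt1 (left) and Hmox1 (right) held by the 10% of cells with the most (y axis, percent) against the mean UMIs per thinned cell (x axis, logarithmic). Each point is a library, coloured by set, open for day 3 and triangular for the hCD2 line; the SII libraries of day 3 lie above the other libraries of like mean, and points at 100% are libraries where so few cells held a UMI that the top 10% held all of them.

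Within transduced libraries, none of the 10 genes passed the test between cells with and without haematopoietic markers. Cells with at least 2 thinned UMIs of the 12 pan-haematopoietic markers were set against cells with none, in 15 libraries that had at least 30 cells of each. The library labelled PI8 day 9 had only 4 marker-negative cells and was not used. Arhgdib, 1 of the 12 markers, made up 214.5 of the list's 217.8 CPM in the first MEF library. It made up 835.6 of 1035 CPM in PIB and 45.09 of 606 CPM in PIP, both at day 3. The fibroblast list in positive and negative cells stood at 10031.8 and 10045.7 CPM in PIB and 4378.0 and 5058.8 CPM in PIP, both at day 9. The classes differ by marker UMIs, partly of a gene that MEFs hold, and need not differ in haematopoietic state. Mean levels in positive and negative cells were 1423 and 1500 CPM for Mt1, 593.2 and 561.8 CPM for Hmox1, 16.50 and 22.12 CPM for Nqo1 and 17.73 and 25.94 CPM for Gclc. These means weigh libraries of high level most: positive cells were the higher in 10 of 15 libraries for Mt1, 6 for Hmox1, 5 for Nqo1 and 5 for Gclc. The edgeR test called 0 of the 10 genes, in a comparison that called 2.3% of genes, 1159 had an unadjusted p under 0.05, and DESeq2 called 55. The largest differences were -0.45 ± 0.20 for Nqo1 (adjusted p = 0.329) and -0.43 ± 0.17 for Gclc (adjusted p = 0.214). In the pathway lists 6 of 51 genes were higher and none lower, led by Txn2, a mitochondrial thioredoxin (0.33 ± 0.09, adjusted p = 0.0341; called in 6 of 15 fits that left out 1 library), Taldo1 (0.27 ± 0.05, adjusted p = 0.000257) and Fth1, the ferritin heavy chain (0.24 ± 0.04, adjusted p = 0.000126).

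Across the 21 libraries the 10 genes fell into loose company, described by Spearman's rho of their levels, which share library depth and the presence of fibroblasts. Mt1 and Mt2 had a rho of 0.958. Nqo1 had 0.940 with Srxn1 and 0.932 with Txnrd1, and Hmox1 had 0.895 with Srxn1. Mt2 with Gclc had 0.005, and Gclc had at most 0.578 with any other of the 10 (Gclm). Of 8044 genes with a mean of at least 10 CPM, the most alike outside the set were Ankrd24 (0.945) and Dsel (0.934) for Mt1 and Gnb5 (0.949) and Vasn (0.942) for Mt2. They were Fth1 (0.919) and Clec5a (0.910) for Hmox1, 4930402H24Rik (0.925) and Acot9 (0.923) for Nqo1, Aaas (0.901) and Abcf2 (0.883) for Gclm and Las1l (0.749) and Eif1 (0.744) for Gclc. They were Esd (0.925) and Hotairm1 (0.912) for Srxn1, Rabac1 (0.926) and Gabarapl1 (0.919) for Txnrd1, Ripk2 and Slc6a8 (0.810 each) for Slc7a11 and 9130008F23Rik (0.900) and Fkbpl (0.879) for Nfe2l2.

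The nearest gene to Hmox1, Fth1, stores the iron that haem breakdown releases. It stood at 7930 and 8077 CPM in MEF, at 8054 to 27170 CPM at day 3 and at 23760 to 38320 CPM in 7 libraries of day 9, with 2336 CPM in the library labelled PI8 day 9. Without that library Fth1 was higher at day 9 than at day 3 by 0.93 ± 0.17 (adjusted p = 0.0174) and than in MEF by 1.95 ± 0.40 (adjusted p = 0.00319). In splenic DCs it stood at 1776, 3395 and 7378 CPM in cDC1, cDC2 and pDC.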

How the data were processed

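RNA of single cells was measured with the 10x Chromium 3' v3.1 dual index assay in 21 libraries. The submitters' processing notes name Seurat, Cell Ranger 6.0.1 and build mm10; the authors' Seurat version and filters on cells are not given in the sources used here. The deposited values are UMI counts, whole numbers for each gene in each cell, and 0 columns were left unassigned. No cells were removed here, and doublets were not called.

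Counts were summed per library and tested with the two-sided quasi-likelihood test of edgeR 4.0.16 in R 4.3.3, after filterByExpr and TMM scaling, with Benjamini-Hochberg adjustment over all genes tested and a threshold of 0.05. Day 3, day 9 and MEF shared 1 fit of 18 libraries. Day 9 was compared with day 3 over 16 libraries, and the model held a block for each arm, whose days share a label; PIB against PI8 and PIP against PI4 come from that fit. SII against SI8 used 8 libraries with line and day as covariates, and splenic DCs a fit of all 21. The comparison within libraries used cells thinned to 2500 UMIs, with the library as a block. CPM intervals are exact Poisson intervals at 95%, and a count of 0 allows 3 counts; both cover counting error only. DESeq2 1.42.0 and other scalings, filters and subsets were alternatives. The edgeR steps were tested on simulated data. The genes and all lists were chosen with earlier results of these data known. Pathway genes named are up to 3 called per comparison with the largest change, and likeness names the 2 most correlated genes; exceptions are marked. Alternatives without the library labelled PI8 day 9 or by cell depth were added after the data were seen. RefSeq promoters of GRCm38.p6 were matched by symbol.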

Additional observations from a re-analysis of the deposited data

How the results depend on the processing

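Of the alternatives that changed a setting or left out chosen cells or libraries, 564 values kept their direction and side of the threshold, 35 newly passed, in the same direction, 7 no longer passed and 23 changed sign. Leaving out 1 library at a time gave 1607, 36, 14 and 73. Where a value changed, the cause was not tested. The shallowest libraries (SI8 of the hCD2 line, medians of 2765 and 2786 UMIs per cell) set the depth for thinned cells, and genes with few UMIs there or in splenic DCs are the least precise.

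The number of the 10 genes called was 0 at day 3 against MEF, and 1 with DESeq2, 3 with only the groups compared and 1 without PI8 day 9 and both SI8 libraries of the hCD2 line. At day 9 against MEF it was 2, and 5, 1 and 7 under the same changes. For day 9 against day 3 it was 0, and 3 with DESeq2, 1 with thinned cells, 0 with cells of at least 10000 UMIs, 6 with those cells and without PI8 day 9, and 5 without the 3 libraries named. It was 1 for SII against SI8 and 2 with DESeq2, 8 for DCs against MEF and 3 with only the groups compared, and 0 for marker-positive against marker-negative cells and 1 with no filter. Without the block for the arm, which pairs the days, day 9 against day 3 called 0 of the 10 genes and 0 of all genes. Only the MEF libraries carry a replicate number in the labels, so no other pairing could be fitted. Leaving out 1 library gave 0 to 1 genes at day 3 and 0 to 7 at day 9 against MEF, 0 to 7 for day 9 against day 3, 0 to 8 for PIB against PI8, 1 to 3 for SII against SI8, 0 to 1 for the hCD2 against the Clec9a line and 5 to 8 for DCs against MEF.

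Counts over all genes moved by more than 1.5 times under these changes of setting. Day 3 against MEF called 2825 genes, and 1687 with thinned cells, 4371 with DESeq2 and 4527 without the 3 libraries. Day 9 against MEF called 1746, and 1101, 3289 and 3184 under the same changes and 1058 with only the groups compared. Day 9 against day 3 called 13, and 3 with cells of at least 10000 UMIs, 1203 with DESeq2, 888 without the 3 libraries and 702 with those cells and without PI8 day 9. SII against SI8 called 5798, and 3838 with cells of at least 10000 UMIs and 1667 in the Clec9a line alone. Marker-positive against marker-negative cells called 213, and 55 with DESeq2, 577 with no filter and 113 with relative log expression scaling. The hCD2 against the Clec9a line called 3, and 10 with no filter and 66 with DESeq2. Leaving out 1 library moved counts further. Without the first or second MEF library, day 3 against MEF called 566 or 561 genes, day 9 against MEF 264 or 267 and DCs against MEF 3927 or 3939, in place of 6856. Without PI8 day 9 the first 2 of these called 4451 and 3310. Day 9 against day 3 called 1232 without PI8 day 3, 1272 without PI8 day 9 and 3 to 5 in 12 other fits. PIB against PI8 called 7364 without PI8 day 3, 40 without PI8 day 9 and 0 otherwise. PIP against PI4 called 22, and 646 or 660 without PI8 day 3 or day 9, 0 without PIP day 3 and 3 to 13 in the rest. SII against SI8 called 3575 to 3845 without SI8 or SII of the Clec9a line, or SII of the hCD2 line, at day 3. The hCD2 against the Clec9a line called 25 without SII of the hCD2 line at day 9, the interaction 6 in place of 0 without SII of that line at day 3, and Irf4 against Irf8 sets 0 in place of 1 in 6 fits. Marker-positive against marker-negative cells called 126 or 128 without PIP day 3 or day 9.

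Signs of log2 fold changes turned in the following cases. Without the 3 libraries, Mt1 at day 9 against MEF was 0.018. With no filter on low counts, Gclm was 0.004 in PIB against PI8, Srxn1 0.022 in PIP against PI4, and Srxn1 0.01 and Txnrd1 0.06 in marker-positive cells. With thinned cells, Slc7a11 was 0.884 in PIB against PI8. In PIP against PI4 thinned cells gave Mt1 -0.07, Mt2 -0.344, Gclc 0.121 and Slc7a11 -0.357. They gave Mt2 -0.102 in SII against SI8, Nqo1 -0.217 in the hCD2 line, Txnrd1 -0.022 in the interaction of SII with the line and Txnrd1 0.01 in Irf4 against Irf8 sets. Relative log expression scaling gave Mt2 -0.004 in SII against SI8 and -0.029 in marker-positive cells, and DESeq2 -0.004 and -0.028, with Slc7a11 0.007 in marker-positive cells. In SII against SI8, Gclc was -0.09 without covariates (no replicate block), and in the Clec9a line alone Mt2 was -0.397 and Gclc -0.328. With 3 or more marker UMIs per cell Srxn1 was 0.011.

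Leaving out 1 library turned signs in these ranges. Day 9 against day 3 gave Nfe2l2 -0.106 to 0.3. PIB against PI8 gave Gclm -0.36 to 0.355, Slc7a11 -1.369 to 3.238, Mt1 -0.712 to 5.856, Mt2 -0.347 to 7.82, Hmox1 -0.983 to 9.25, Srxn1 -0.603 to 3.617, Txnrd1 -0.006 to 1.142, Nfe2l2 -0.244 to 2.11 and Nqo1 -0.431 to 3.345, each highest without PI8 day 3. PIP against PI4 gave Srxn1 -0.276 to 0.329, Mt1 -0.199 to 0.588, Mt2 -0.405 to 0.89, Hmox1 -0.616 to 0.578, Gclc -0.456 to 0.294 and Txnrd1 -0.342 to 0.227. SII against SI8 gave Mt2 -0.422 to 0.256, Gclm -0.432 to 0.07 and Gclc -0.096 to 0.791. The hCD2 line gave Nqo1 -0.462 to 0.502, Txnrd1 -0.011 to 0.203, Gclm -0.331 to 0.109 and Srxn1 -0.581 to 0.118. The interaction gave Txnrd1 -0.108 to 0.465, Slc7a11 -0.008 to 2.644, Mt1 -0.092 to 1.607 and Mt2 -0.114 to 1.682. Irf4 against Irf8 sets gave Nqo1 -0.381 to 1, Srxn1 -0.008 to 1.039 and Hmox1 -1.006 to 0.248. DCs against MEF gave Slc7a11 -2.83 to 0.121. Marker-positive against marker-negative cells gave Mt2 -0.019 to 0.083, Txnrd1 -0.054 to 0.026, Srxn1 -0.123 to 0.032 and Slc7a11 -0.433 to 0.244.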
